A study of Homo sapiens with 6 samples.

Results

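The genes described here encode the proteins that gather on the activated TNF receptor 1, in the assembly known as complex I. They were chosen by name from the deposited expression table: the receptor TNFRSF1A, the adaptor TRADD, the kinase RIPK1, the inhibitor of apoptosis proteins BIRC2 (cIAP1) and BIRC3 (cIAP2), the linear ubiquitin ligase subunits RNF31, RBCK1 and SHARPIN, and the deubiquitinases CYLD and OTULIN. All 10 were present among the 23002 genes of the table, and all 10 were above the filter on low values. Messenger RNA was sequenced in U251 cells, an established human glioblastoma line, carrying either a non-targeting control short hairpin RNA (sh-NC, 3 samples) or a short hairpin RNA against TRAF2 (sh-TRAF2, 3 samples). Both lines were made with lentivirus and grown as stable, puromycin-selected lines with no cytokine treatment named in the labels. The sources used here do not say whether a line was a pool or a clone, nor which TRAF2 hairpin was sequenced.

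In complex I, ligand-bound TNFRSF1A recruits TRADD, which brings in RIPK1 and TRAF2. TRAF2 carries the cIAPs, which attach ubiquitin chains to RIPK1, and these chains draw the linear ubiquitin ligase complex (LUBAC) made of RNF31, RBCK1 and SHARPIN. The chains hold the TAK1 and IKK kinases that switch on NF-kappaB, while CYLD and OTULIN cut chains. When ubiquitination of RIPK1 fails, TRADD and RIPK1 can form a cytosolic complex with FADD and caspase-8 that leads to cell death. BIRC3 is itself a well-known target gene of NF-kappaB. Only transcript levels were measured here, so the amounts of these proteins, their ubiquitin chains and the complex itself are not part of the data.

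Both TRAF2 target sequences listed by the study are shown first, since the sh-TRAF2 line differs from sh-NC by such a hairpin. On GRCh38 the first lies at chr9:136916579-136916599 on the plus strand, in coding exon 7 of the 11 exons of TRAF2. The second lies at chr9:136920480-136920500 in coding exon 8. Capitals mark bases 10 to 16 of the first target, ATTCCAC, a run also present in the longest 3′UTR of 10.7% of the 10607 tested genes with an annotated one.
sh-TRAF2#1: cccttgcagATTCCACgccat
sh-TRAF2#2: ctggaccaagacaagattgaa
Neither whole target was found in an annotated transcript of any member. The longest exact match was 7 to 10 bases for the first target and 7 to 12 bases for the second, the longest being in RNF31. ATTCCAC was in the longest 3′UTR of 0 of the 10 members, beside the 10.7% of tested genes given above. The run is defined only by its place in the target, and its absence does not show that a hairpin spares a gene. No other run of the first target, and none of the second, was searched in 3′UTRs. Effects of the hairpins on genes other than TRAF2 were therefore not tested.

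The promoters of the paired cIAP genes are shown because these genes lie beside each other yet gave opposite results below. BIRC3 and BIRC2 stand in the same orientation on chromosome 11, 7807 bases apart. The RefSeq windows (GRCh38.p14, 250 bases before to 50 after the start site, plus strand) are chr11:102317234-102317533 for BIRC3 and chr11:102346964-102347263 for the first of the BIRC2 starts. Capitals mark matches to the NF-kappaB (kappaB) consensus, which was searched on both strands.
BIRC3: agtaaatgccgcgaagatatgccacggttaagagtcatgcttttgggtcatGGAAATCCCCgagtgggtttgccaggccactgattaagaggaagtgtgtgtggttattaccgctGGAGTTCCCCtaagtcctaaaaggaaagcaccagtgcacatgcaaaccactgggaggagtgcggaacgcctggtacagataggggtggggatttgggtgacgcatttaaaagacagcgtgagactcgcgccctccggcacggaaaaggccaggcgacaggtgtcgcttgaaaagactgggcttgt
BIRC2: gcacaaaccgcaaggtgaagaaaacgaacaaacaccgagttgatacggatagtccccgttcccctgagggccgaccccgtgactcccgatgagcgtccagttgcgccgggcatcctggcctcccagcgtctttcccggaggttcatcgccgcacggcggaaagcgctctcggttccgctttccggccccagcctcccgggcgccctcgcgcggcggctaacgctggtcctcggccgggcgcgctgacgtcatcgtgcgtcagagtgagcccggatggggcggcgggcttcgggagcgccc
The BIRC3 window held 2 matches, 199 and 135 bases before the start site, and they do not overlap. Neither of the BIRC2 windows held one. Of 35116 RefSeq promoter windows of this length, 11.3% held at least 1 match and 2.04% held 2 or more. Promoters were found for 8 of the 10 members, all but TRADD and SHARPIN, and apart from BIRC3 only CYLD had a match, 1 in each of 2 windows. A match describes letters in a window and does not show binding.

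The libraries were alike in depth, with 33999558 to 36823562 reads on genes recovered from the FPKM (fragments per kilobase, scaled to depth) values. TRAF2, the targeted gene, was read first. It stood at 15.1, 18.4 and 15.3 FPKM in the sh-NC samples and at 3.26, 3.22 and 3.33 FPKM in the sh-TRAF2 samples, a log2 fold change of -2.27 (SE, standard error, 0.079; Benjamini-Hochberg adjusted p from limma = 1.16e-06). The glial and mesenchymal markers VIM, CD44, SOX2 and SOX9 were expressed in every sample. GFAP was at most 1.62 FPKM, FABP7 at most 1.02 FPKM, S100B had at most 1 read and CHI3L1 was absent from the deposited values. The summed glioma marker list ran from 1460 to 1531 FPKM in sh-NC and from 1811 to 1856 in sh-TRAF2, most of it VIM. Of its 7 tested genes 3 passed the test, or 42.9%, beside 44.6% of all tested genes. All 3 were higher. VIM rose by 0.35 on the log2 scale and NES by 1.12 (4.82 to 5.88 FPKM in sh-NC and 11.4 to 11.8 in sh-TRAF2). GFAP rose by 1.11, with overlapping groups. The summed epithelial list ran from 16.3 to 18.6 and from 26.5 to 27.8 FPKM, nearly all of it KRT18, with EPCAM and CDH1 at no more than 1 read. PTPRC, PECAM1, RBFOX3 and MOG had at most 2 reads in any sample. Some other markers of the macrophage, endothelial, neuronal and oligodendroglial lists had more. CD68 ran from 15.8 to 16.5 FPKM in sh-NC and from 14.9 to 17.6 in sh-TRAF2, and did not pass the test. CD14 had up to 37 reads, ITGAM up to 28, SNAP25 up to 74, CDH5 up to 12 and MBP up to 5. The part of these marker shifts in the results below was not tested.

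In the sh-TRAF2 line 5 of the 10 members differed from sh-NC, with log2 fold changes between -0.47 and 0.35. TRADD, BIRC2 and RNF31 rose, BIRC3 and RIPK1 fell, and TNFRSF1A, RBCK1, SHARPIN, OTULIN and CYLD did not pass the test. A gene passed at an adjusted p under 0.05 in limma on log2(FPKM + 0.1). Among the 11870 genes tested 44.6% passed, 23.7% higher and 20.9% lower, so 5 of 10 members is close to the background. The groups did not overlap in 6 members, where 55.5% of all tested genes had groups that did not overlap. An unadjusted limma p under 0.05 was found for 5 of the 10 members and for 6249 of the 11870 tested genes. None of the 10 passed the stricter call that adds an absolute log2 fold change above 1, which 1.72% of all genes passed in limma. Limma-voom on the recovered reads also left none past that stricter call. The median log2 fold change of the members was 0.060, beside 0.019 for all tested genes, and the median absolute log2 fold change was 0.16 beside 0.19. These are bulk samples, in which fewer cells expressing a gene and less RNA per cell cannot be told apart.

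**Figure D1:**
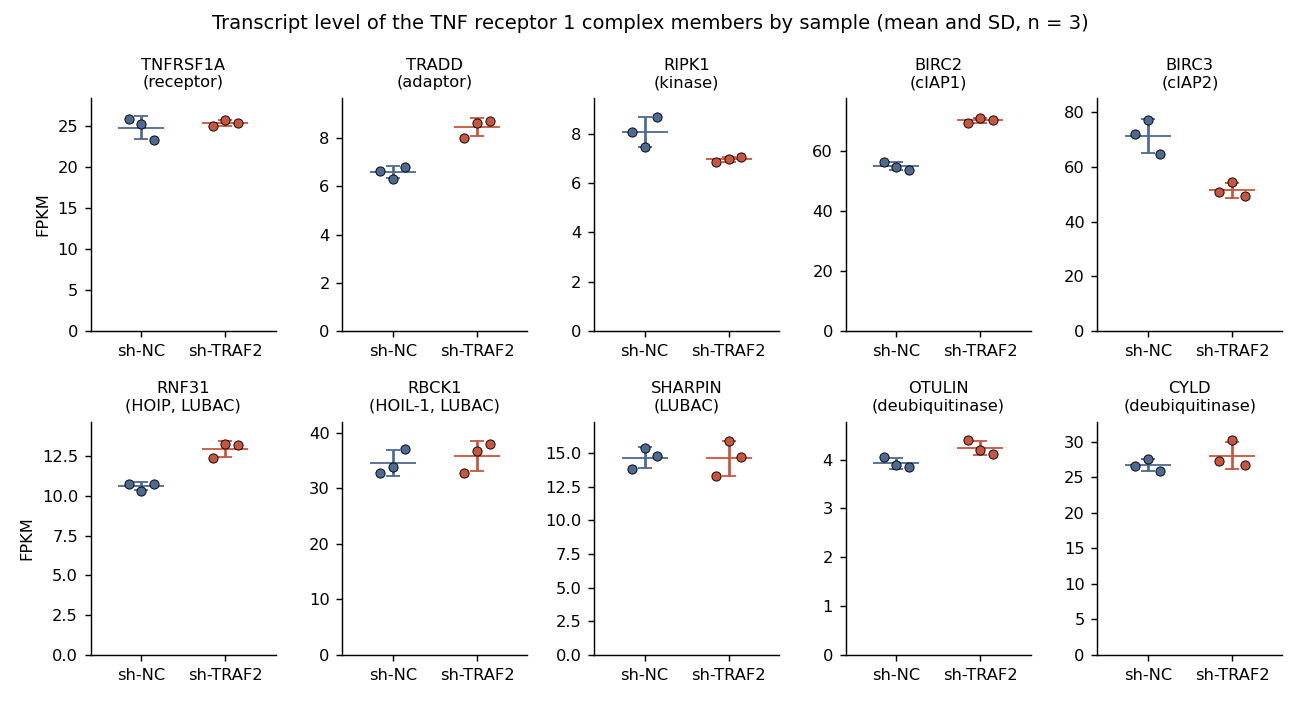
FPKM of each member in the 3 sh-NC samples (blue) and 3 sh-TRAF2 samples (red), 1 panel per gene with its own axis from 0; horizontal lines are means and bars are SD. TRADD, BIRC2 and RNF31 sit higher in every sh-TRAF2 sample, BIRC3 and RIPK1 sit lower, and OTULIN is separated by a narrow gap.

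The receptor did not pass the test. TNFRSF1A stood at 25.8, 25.2 and 23.2 FPKM in sh-NC and at 25.0, 25.7 and 25.3 FPKM in sh-TRAF2. All sh-TRAF2 values lay inside the sh-NC range. Its log2 fold change was 0.035 with a 95% confidence interval from -0.077 to 0.15 (adjusted p = 0.590, limma), so a change beyond 1.11-fold upward or to below 0.948 of the control level lies outside the interval.

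TRADD, the adaptor that binds the receptor's death domain, rose. Its level was 6.66, 6.31 and 6.82 FPKM in sh-NC and 8.03, 8.61 and 8.72 FPKM in sh-TRAF2. Every knockdown sample exceeded every control sample. The means were 6.60 ± 0.259 and 8.46 ± 0.374 FPKM (SD, n = 3), a rise of 28.2%. The log2 fold change was 0.35 (SE 0.058, limma adjusted p = 0.00161). TRADD rests on fewer reads than any other member, 492 to 667 per sample, and 126 of its exon bases are shared with FBXL8 on the opposite strand, which had 22 to 40 reads. Within each library the TRADD to TNFRSF1A ratio of FPKM was 0.258, 0.251 and 0.293 in sh-NC and 0.322, 0.335 and 0.345 in sh-TRAF2, which puts the adaptor higher relative to its receptor in all 3 knockdown libraries.

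RIPK1, the kinase that carries the ubiquitin chains of complex I and can also start cell death, was lower. It stood at 8.06, 7.45 and 8.66 FPKM in sh-NC and at 6.86, 6.98 and 7.06 FPKM in sh-TRAF2. The groups did not overlap, but the control samples were spread over more than the gap between the groups. The means were 8.06 ± 0.602 and 6.97 ± 0.0992 FPKM (SD, n = 3), and the log2 fold change was -0.20 (SE 0.064, limma adjusted p = 0.0305). This call is the weakest of the 5. Leaving out any 1 sample other than sh-NC replicate 2 raised the adjusted p to between 0.0648 and 0.0977, and testing all genes with no filter on low values gave 0.0618.

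The cIAPs moved in opposite directions. BIRC2 stood at 56.4, 54.7 and 53.8 FPKM in sh-NC and at 69.4, 70.9 and 70.5 FPKM in sh-TRAF2. BIRC2 rose by 27.8% in its mean, from 55.0 ± 1.35 to 70.3 ± 0.788 FPKM (SD, n = 3), with a gap between the groups far wider than the spread within either. Its log2 fold change was 0.35 (SE 0.034, limma adjusted p = 1.23e-04), the smallest adjusted p among the members.

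BIRC3 stood at 72.1, 77.0 and 64.8 FPKM in sh-NC and at 50.7, 54.5 and 49.3 FPKM in sh-TRAF2. Every knockdown sample lay below every control sample. The mean fell by 27.8%, from 71.3 ± 6.10 to 51.5 ± 2.68 FPKM (SD, n = 3). The log2 fold change of -0.47 (SE 0.066, limma adjusted p = 7.54e-04) was the largest of the members in absolute size, and 14.6% of all tested genes had a larger one. BIRC3 had 12079 to 19242 reads per sample and BIRC2 8292 to 10468.

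The more abundant cIAP transcript differed between the lines. The BIRC3 to BIRC2 ratio of FPKM was 1.28, 1.41 and 1.21 in the sh-NC libraries and 0.731, 0.768 and 0.699 in the sh-TRAF2 libraries. It was above 1 in all controls and below 1 in all knockdown samples. On the log2 scale the ratio was 0.37 ± 0.11 in sh-NC and -0.45 ± 0.068 in sh-TRAF2 (SD, n = 3), a difference of -0.82. The sum of both cIAPs, taken after their values were seen, was 126 ± 6.83 FPKM in sh-NC and 122 ± 3.15 FPKM in sh-TRAF2 (SD, n = 3), with overlapping samples. BIRC3 made up 54.7% to 58.4% of this sum in sh-NC and 41.1% to 43.4% in sh-TRAF2. The genes are paralogues, and their annotated transcripts shared a longest exact run of 60 bases, with 41 of the 4044 windows of 30 bases in the longest BIRC2 transcript also found in BIRC3.

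LUBAC subunits did not move together. RNF31 (HOIP), the catalytic subunit, stood at 10.7, 10.3 and 10.8 FPKM in sh-NC and at 12.4, 13.2 and 13.2 FPKM in sh-TRAF2. It rose in every knockdown sample relative to every control, by 22.1% in its mean, with a log2 fold change of 0.28 (SE 0.049, limma adjusted p = 0.00212). In GENCODE release 29, 216 exon bases of RNF31 are shared with PSME2 on the opposite strand and 1732 with the locus AL136295.5 on the same strand, so reads in the same-strand part cannot be told apart, nor those in the PSME2 part without knowing how strand was counted. PSME2 was at 151 ± 1.74 FPKM in sh-NC and 159 ± 3.64 FPKM in sh-TRAF2 (SD, n = 3), a log2 difference of 0.078 that did not pass the test (adjusted p = 0.0728, limma).

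RBCK1 (HOIL-1) stood at 32.6, 33.8 and 37.1 FPKM in sh-NC and at 32.7, 36.6 and 38.0 FPKM in sh-TRAF2, with wide overlap. SHARPIN, the accessory subunit, stood at 13.8, 15.4 and 14.8 FPKM in sh-NC and at 13.2, 15.9 and 14.7 FPKM in sh-TRAF2, and its knockdown samples lay on both sides of the controls. The 95% confidence interval of the log2 fold change ran from -0.10 to 0.21 for RBCK1 (adjusted p = 0.558, limma) and from -0.17 to 0.16 for SHARPIN (adjusted p = 0.933, limma). Relative to RNF31 in the same library, RBCK1 went from 3.04, 3.28 and 3.45 in sh-NC to 2.64, 2.77 and 2.88 in sh-TRAF2. The SHARPIN to RNF31 ratio was 1.29, 1.49 and 1.37 in sh-NC and 1.07, 1.20 and 1.11 in sh-TRAF2. In both ratios the groups did not overlap, so in each knockdown library there was less partner transcript per RNF31 transcript than in any control.

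Neither deubiquitinase passed the test. CYLD, which removes lysine-63 and linear chains, stood at 26.7, 27.6 and 25.9 FPKM in sh-NC and at 27.2, 30.2 and 26.7 FPKM in sh-TRAF2. The groups overlapped, and the log2 fold change was 0.069 with a 95% confidence interval from -0.057 to 0.19 (adjusted p = 0.338, limma). OTULIN, which cuts linear chains only and binds RNF31, stood at 4.05, 3.89 and 3.84 FPKM in sh-NC and at 4.39, 4.19 and 4.12 FPKM in sh-TRAF2. Every knockdown value was above every control value by a narrow margin, yet the log2 fold change of 0.11 (95% confidence interval from -0.035 to 0.25) did not pass the test (adjusted p = 0.194, limma). The OTULIN to RNF31 ratio was 0.377, 0.377 and 0.357 in sh-NC and 0.355, 0.317 and 0.312 in sh-TRAF2.

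**Figure D2:**
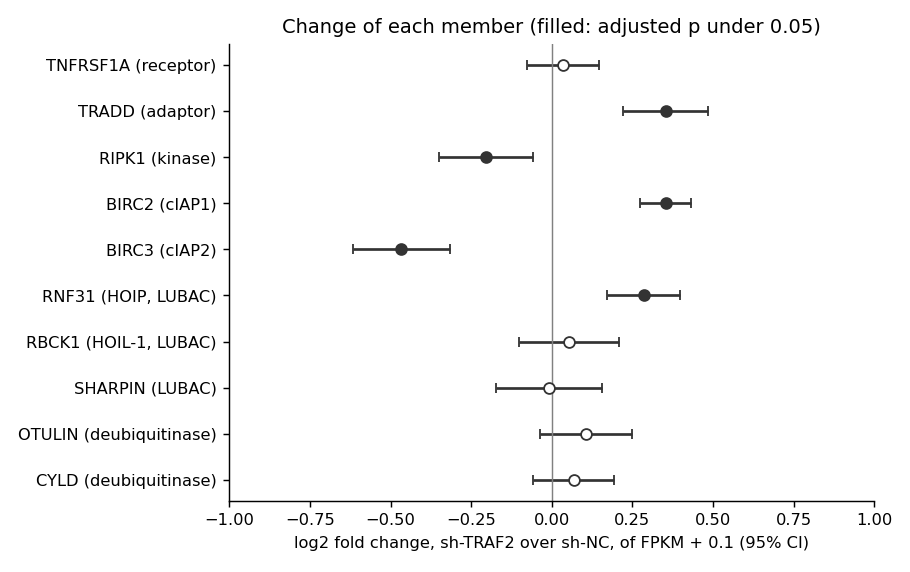
Log2 fold change of each member, sh-TRAF2 over sh-NC, on the log2(FPKM + 0.1) scale, with points for the limma estimate and bars for its 95% confidence interval; filled points have an adjusted p under 0.05. The filled points run from -0.47 (BIRC3) to 0.35 (BIRC2 and TRADD), and the 5 open intervals all include 0.

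The 5 ratios were tested by an exact two-sided permutation test over the 20 assignments of the samples. Each permutation test gave p = 0.1, also after adjustment over the 5 ratios, which is the smallest that 3 samples against 3 allow, so none could pass. The log2 difference was -0.82 for BIRC3 to BIRC2, -0.24 for RBCK1 to RNF31, -0.30 for SHARPIN to RNF31, -0.18 for OTULIN to RNF31 and 0.32 for TRADD to TNFRSF1A. The ratios to RNF31 share 1 denominator and are not independent of each other. The same exact test on single members likewise gave p = 0.1 for the 6 whose groups did not overlap.

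**Figure D3:**
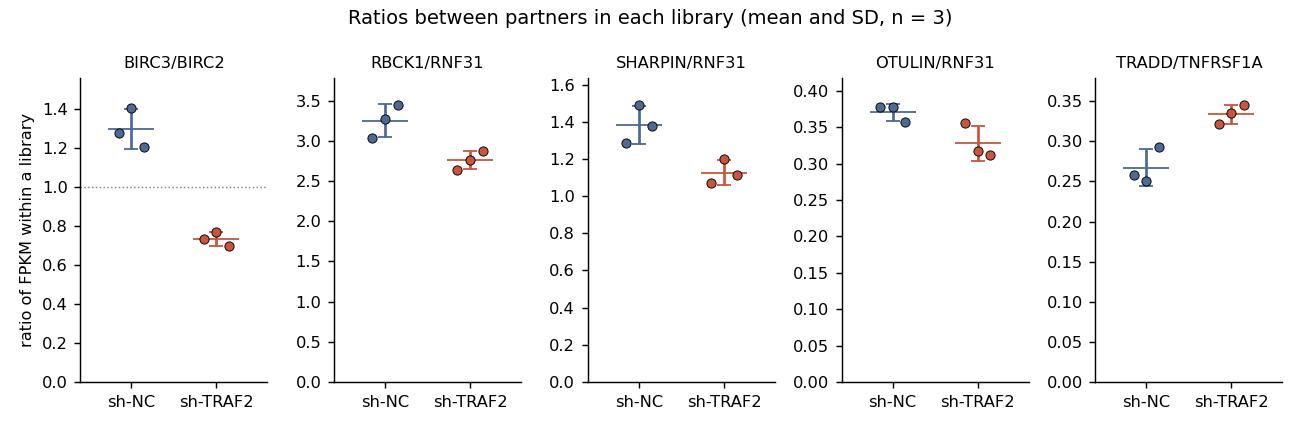
Ratio of FPKM between partners in each library, for the 3 sh-NC samples (blue) and 3 sh-TRAF2 samples (red); lines are means, bars are SD, axes start at 0 and the dotted line in the first panel marks a ratio of 1. BIRC3 to BIRC2 lies between 1.21 and 1.41 in sh-NC and between 0.699 and 0.768 in sh-TRAF2, and TRADD to TNFRSF1A is the only ratio that is higher in sh-TRAF2.

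By level per length, the members covered a wide range. In sh-NC the order of mean FPKM was BIRC3 (71.3), BIRC2 (55.0), RBCK1 (34.5), CYLD (26.7), TNFRSF1A (24.8), SHARPIN (14.7), RNF31 (10.6), RIPK1 (8.06), TRADD (6.60) and OTULIN (3.93). No neighbours in that order overlapped in their 3 samples. In sh-TRAF2 the order was the same except that BIRC2 stood above BIRC3 and TRADD above RIPK1, again with no overlap between neighbours. The lower part of the order depends on the gene length used. The length behind the deposited OTULIN values was inferred as 15888 bases, where the GENCODE exons of the gene sum to 8614 bases. Lengths were inferred from the recovered reads, with the sum of reads on genes assumed to be the depth. With exon lengths of GENCODE, an alternative chosen after seeing the data, OTULIN stood at 7.24 FPKM in sh-NC, above TRADD at 5.65, and RIPK1 at 11.6 stood above RNF31 at 7.73. The exchange between TRADD and RIPK1 was lost with these lengths, as in sh-TRAF2 TRADD stood at 7.24 and RIPK1 at 10.05 FPKM. The first 5 places and the exchange between BIRC3 and BIRC2 were the same under both lengths.

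By Pearson correlation of log2(FPKM + 0.1) over the 6 samples, the tested genes most like BIRC3 were OGDH (r = 0.997), PARVA (r = 0.997) and DPP9 (r = 0.996). In all, 376 genes had an r above 0.95 with BIRC3. The 6 samples fall into 2 groups of 3 libraries, and any gene that is lower in sh-TRAF2 shares that step, so this likeness is given as a description only.

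Among the other genes of the pathway, too, some rose and some fell. Of 39 tested genes in 5 lists around the complex, 8 passed the test higher and 10 lower, 46.2% in all, beside 44.6% of all tested genes. Among ligands and their control, TNF itself rose from 12.1, 12.3 and 11.0 FPKM in sh-NC to 19.3, 25.3 and 20.6 FPKM in sh-TRAF2 (log2 fold change 0.87, SE 0.096, limma adjusted p = 2.26e-04). ADAM17, the protease that sheds TNF and its receptors, fell by 0.39 on the log2 scale. So 1 of the 4 tested genes of that list rose and 1 fell, or 50%, beside 44.6% of all tested genes. MADD, a death domain protein that binds TNFRSF1A, had a log2 difference of 0.061 (adjusted p = 0.419, limma).

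Of 6 tested TRAF and TANK family adaptors, 2 rose and 1 fell, or 50%, beside 44.6% of all tested genes. TANK, which links TRAFs to the TBK1 kinase, rose by 0.50 on the log2 scale and its relative AZI2 by 0.28. TRAF6, the ligase of the interleukin-1 and Toll-like receptor pathways, fell by 0.27. Of 13 ubiquitin editing and E2 enzymes, SPATA2, which docks CYLD on LUBAC, fell by 0.29 and TNIP1, a partner of the A20 enzyme, rose by 0.11. TNFAIP3 (A20) had a log2 difference of -0.12 that did not pass (adjusted p = 0.0955, limma). With 2 of 13 genes passing, or 15.4%, this list lay under the 44.6% of all tested genes, which is given as a description.

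Of 9 tested kinases and kinase subunits held by the chains of complex I, 5 fell and 0 rose, or 55.6%, beside 44.6% of all tested genes in either direction and 20.9% lower. TAB3, a chain-binding subunit of the TAK1 kinase, fell by 0.73 on the log2 scale, CHUK (IKK alpha) by 0.42 and MAP3K7 (TAK1) by 0.34. The other fallers, TBK1 at -0.31 and TAB2 at -0.22, are named after their values were seen. IKBKG, IKBKB, IKBKE and TAB1 did not pass. At an unadjusted limma p under 0.05 the number of kinases was also 5, beside 6249 of the 11870 tested genes. Limma-voom on the recovered reads likewise passed 5 lower and 0 higher.

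Of 7 tested genes of the death complex and of IAP antagonists, 4 rose and 2 fell, or 85.7%, beside 44.6% of all tested genes. FADD, the adaptor that joins TRADD and RIPK1 to caspase-8, stood at 13.1, 14.0 and 13.2 FPKM in sh-NC and at 28.9, 30.3 and 27.2 FPKM in sh-TRAF2. Its log2 fold change of 1.10 (SE 0.052, limma adjusted p = 4.32e-06) was the only one in the 5 lists past both thresholds. HTRA2, a mitochondrial protease that binds IAPs, rose by 0.62 on the log2 scale, and CASP8 fell by 0.37. The rises of DIABLO (0.22) and CFLAR (0.25) and the fall of XIAP (-0.28) are named after their values were seen.

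**Figure D4:**
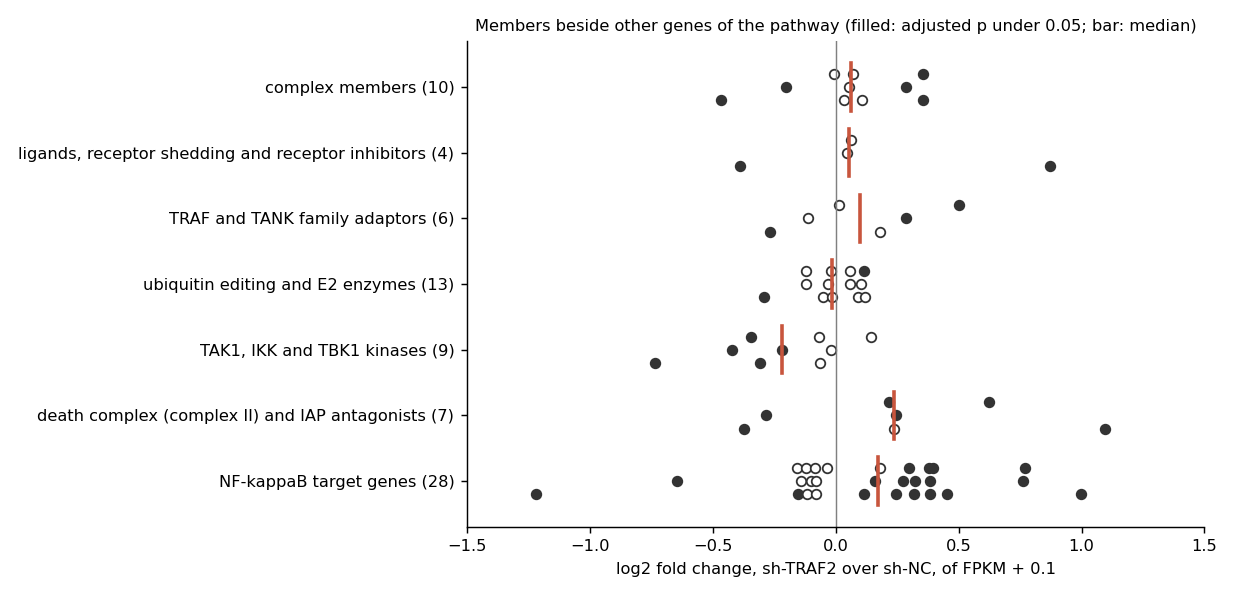
Log2 fold change of every tested gene, sh-TRAF2 over sh-NC, for the 10 members and for each list of other genes, with the number of tested genes in parentheses; filled points have an adjusted p under 0.05 and red bars are medians. The members lie between -0.47 and 0.35, FADD stands apart at 1.10 among the death complex genes and CCL2 at -1.22 among the NF-kappaB target genes.

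BIRC3 was set beside 28 other tested NF-kappaB target genes, since it is one itself. Of these, 15 rose, 3 fell and 10 did not pass the test, and the median log2 fold change of the list was 0.17. Of the 10, TRAF1 leaned higher (0.18) and the rest leaned lower, from -0.037 (BCL3) to -0.16 (SOD2). BIRC3 thus went with the smaller number of those that passed. The fallers were CCL2, a monocyte chemokine, at -1.22 (SE 0.080, limma adjusted p = 1.86e-05), PLAU, the urokinase plasminogen activator, at -0.65 (SE 0.050, limma adjusted p = 4.12e-05), and NFKB1, named after its value was seen, at -0.16. BCL2A1, an anti-apoptotic BCL2 relative, rose by 1.00 (SE 0.11, limma adjusted p = 2.54e-04). The share that passed was 64.3%, beside 44.6% of all tested genes, 23.7% higher and 20.9% lower. Whether BIRC3 differs from the other targets was not tested.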

How the data were processed

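RNA was extracted with TRIzol, and OE Biotech built the libraries (VAHTS Universal V6 kit), sequenced them and processed the reads. The submitters' processing notes name HISAT2, HTSeq, R 3.2.0 and DESeq2. Their roles, the genome build, the annotation and the use of strand are not given in the sources used here. The deposited values are FPKM computed before deposit for the authors, 1 column for each of the 6 samples, and every column was assigned. FPKM divides by gene length and depth, so the length used sets levels between genes but not fold changes.

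Sh-TRAF2 was compared with sh-NC by limma 3.58.1 in R 4.3.3 (lmFit, eBayes with trend, two-sided) on log2(FPKM + 0.1). Genes averaging under 0.5 FPKM were dropped, which left 11870, with Benjamini-Hochberg adjustment over all of them. The pseudocount pulls fold changes of low genes towards 0. Whole reads were recovered from the FPKM steps (tolerance 1e-05 relative) for all 23002 genes. The script for reads and the fit were tested on simulated data. The labels call the samples biological replicates, but not whether they came from separate transductions, so p-values measure the spread between these samples. All replicate pairs differed beyond sampling noise. Depth is 33999558 reads or more, and intervals come from limma.

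The members and lists were chosen with earlier results of these data known. Named are the members, TRAF2, every gene of the pathway and NF-kappaB target lists past both thresholds, the 3 genes of each of these lists with the smallest adjusted p, and the 3 genes most correlated with BIRC3. Pathway lists held 45 genes, of which 39 were tested. TNFRSF1B was among the listed genes but was not tested, being absent from the deposited values or under the filter. Sequences and coordinates are from GENCODE release 29 and RefSeq (GRCh38), which may not be the authors' build. Alternatives were pseudocounts of 1 and 0.01, no filter, a minimum mean of 1 FPKM, TPM rescaling, quantile normalization, a replicate block, eBayes without trend, each sample left out, and limma-voom on reads (mean of at least 10). Python 3.11.15, pandas 2.3.3 and matplotlib 3.10.9 were used.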

Additional observations from a re-analysis of the deposited data

How the results depend on the processing

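Of 150 recomputed log2 fold changes of members, 141 stayed on the same side of the test and in the same direction, 6 lost the call and 3 changed sign. TRADD, BIRC2, RNF31 and BIRC3 kept theirs in all 15 alternatives each, with BIRC3 between -0.53 and -0.41 and BIRC2 between 0.30 and 0.37 on the log2 scale. The number of members that passed was 4 to 5, and the number lower was 1 with no filter and 1 to 2 with each sample left out, RIPK1 being the gene lost. With each sample left out, TNFRSF1A ran from -0.010 (without sh-NC replicate 3) to 0.066, and SHARPIN from -0.070 to 0.059, above 0 without sh-NC replicate 2 (0.026) or sh-TRAF2 replicate 1 (0.059). No member passed both thresholds in any alternative. Same-numbered samples correlated at -0.081, 0.072 and 0.073 in their deviations from the group means, and differently numbered ones between -0.14 and 0.067. With 3 samples per group, these values cannot settle whether the replicate numbers pair the samples. With the replicate number as a block 5 members passed, 3 higher and 2 lower, and 5451 genes in all in place of 5297. Across all alternatives the number of NF-kappaB target genes that passed ran from 14 to 22, of other pathway genes from 14 to 20 and of all genes from 4282 to 5759.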
